A study of Mus musculus with 16 samples.

Results

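The 6 genes described here are Ppbp, Pf4, Cxcl1, Cxcl2, Cxcl3 and the receptor gene Cxcr2, out of 32285 genes in each count matrix. They were selected by symbol from the feature lists, with the fall of Ppbp in tumour monocytes and macrophages after anti-CD40 treatment already known from these data, so that contrast is given for them as a description without a test. The difference in that change between tumour genotypes is made from the same values, so its p-values for these genes are not free of that selection. The data are single-cell counts of CD45-enriched cells from subcutaneous tumours of C57BL/6J mice. Each mouse carried 1000000 implanted cells of the B16 melanoma line Bro4.1, either control cells or B2m-null cells, which lack the light chain of MHC class I. In the sample labels B2m loss is entered under the host mouse, but the series' design puts it in the melanoma cells that were implanted, which is the reading used here. Mice received 100 µg of anti-CD40 or of a rat IgG2a isotype antibody intraperitoneally on days 6, 9 and 12 and were killed on day 14. The hashtag counts resolved 16 mice: 5 with control tumours and isotype, 2 with control tumours and anti-CD40, 5 with B2m-null tumours and isotype, and 4 with B2m-null tumours and anti-CD40. The names used are control isotype and control CD40 for the former 2 groups, and B2m-null isotype and B2m-null CD40 for the latter 2. Each group other than control CD40 was run as 2 lanes of different mice, here lane replicates 1 and 2. The 2 control CD40 lanes are technical replicates of 1 pool, so that group rests on the same 2 mice throughout.

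CXCR2 is a chemokine receptor that draws neutrophils along gradients of ELR-motif CXC chemokines, and CXCL1, CXCL2 and CXCL3 are among its ligands. Their genes are induced early by inflammatory signals that act through NF-kB, in macrophages, neutrophils and fibroblasts. Ppbp encodes a precursor that proteolysis turns into the CXCR2 ligand CXCL7, and Pf4 encodes CXCL4, which lacks the ELR motif. Both are best known from platelet alpha granules and megakaryocytes, and Pf4 is also expressed in macrophages. CD40 is a receptor of dendritic cells, macrophages and B cells that is normally engaged by CD40 ligand on activated T cells.

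All 5 ligand genes lie on the plus strand of 1 stretch of mouse chromosome 5 (GRCm38.p6, the build that mm10 names), from the start of Ppbp at base 90768518 to the end of Cxcl2 at base 90905938, with Pf4, Cxcl3 and Cxcl1 between them. Cxcr2 (chr1:74153994-74161246) is elsewhere. The 150 bases upstream of the annotated start of each ligand gene are shown because they separate the ligands into those with and without an exact NF-kB decamer. Sequences are from RefSeq, 5′ to 3′ on the gene's strand, and the capitals mark GGGAATTTCC (searched on both strands) and TATAAA (searched on the gene's strand). They cover chr5:90891095-90891244 for Cxcl1, chr5:90903749-90903898 for Cxcl2, chr5:90785951-90786100 for Cxcl3, chr5:90768368-90768517 for Ppbp and chr5:90772285-90772434 for Pf4.
Cxcl1: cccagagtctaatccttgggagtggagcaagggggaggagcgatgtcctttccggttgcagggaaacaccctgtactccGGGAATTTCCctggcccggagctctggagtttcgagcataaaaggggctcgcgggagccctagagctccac
Cxcl2: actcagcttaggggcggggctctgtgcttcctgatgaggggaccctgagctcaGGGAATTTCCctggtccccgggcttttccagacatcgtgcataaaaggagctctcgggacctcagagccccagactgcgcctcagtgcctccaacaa
Cxcl3: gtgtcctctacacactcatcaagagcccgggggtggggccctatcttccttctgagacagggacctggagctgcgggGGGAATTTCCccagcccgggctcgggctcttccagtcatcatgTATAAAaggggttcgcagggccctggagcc
Ppbp: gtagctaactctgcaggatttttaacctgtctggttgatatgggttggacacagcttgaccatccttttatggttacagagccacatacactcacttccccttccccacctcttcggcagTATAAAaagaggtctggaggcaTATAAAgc
Pf4: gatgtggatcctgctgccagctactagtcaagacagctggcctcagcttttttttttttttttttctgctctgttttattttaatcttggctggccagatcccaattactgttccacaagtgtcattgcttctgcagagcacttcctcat
The decamer stands 71 bases before the start of Cxcl1, 97 before Cxcl2 and 73 before Cxcl3, and is absent from the windows of Ppbp, Pf4 and Cxcr2. It occurs in 20 of 32851 such windows (0.0609%). TATAAA occurs 30 bases before the start of Cxcl3, and 30 and 8 bases before that of Ppbp, and in 4.84% of all windows. The letters AGATAA, bound by GATA factors in blood cells and searched on both strands, occur in 5.65% of windows and in none of the 6. These matches describe the letters of the windows and are not evidence of binding. Only this exact decamer was searched for NF-kB, so windows without it may hold other NF-kB sites.

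The 8 lanes held 12894 to 17666 barcodes each, with a median of 1777 to 4762 UMIs per cell kept. At most 0.623% of a lane's barcodes were shared with another lane, and 33.8% to 90.9% of barcodes were assigned to 1 mouse, the lowest share being in B2m-null isotype lane replicate 1. After filtering, 90673 cells fell into 28 clusters, and 47483 of them formed the monocyte-like and macrophage-like clusters. Cell types are rebuilt from marker genes and carry "-like" for that reason where a class is first named. B2m, the targeted gene, was lower in the melanoma-like cells of B2m-null tumours, at 308 to 613 UMIs of the gene per 1000000 UMIs of all genes (CPM) in 4 mice with 10 or more such cells against 1023 to 2206 in 7 mice with control tumours. The remaining B2m reads in those cells were not traced to a source. These and later levels are summed over the cells of a class in 1 mouse. A lower CPM in such a sum can come from fewer expressing cells or from less RNA per cell.

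The 5 ligands and the receptor had different main sources. Cxcl2 was highest in neutrophil-like cells, at 14765 ± 4896 CPM (SD, n = 10 mice with 20 or more of these cells), followed by monocyte-like cells at 3999 ± 561 (n = 16) and macrophage-like cells at 1457 ± 287 (n = 16), and the ranges of these 3 classes did not overlap. Cxcl3 had the same first 2 classes, 1606 ± 1212 CPM in neutrophils and 245 ± 190 in monocytes, but their ranges overlapped (246 to 3931 against 25.3 to 672), as did those of macrophages (58.2 ± 50.8) and mature dendritic cells (61.2 ± 58.7, n = 12). Cxcl1 was highest in fibroblast-like cells, at 312 ± 182 CPM (n = 11), against 125 ± 47.7 in monocytes and 79.1 ± 19.6 in macrophages, with overlapping ranges. Pf4 was highest in macrophages (2169 ± 1087 CPM) and then monocytes (1353 ± 752), which overlapped. CD8 T-like cells, which should lack Pf4, had a Pf4 UMI in 4.79% of cells at a median of 1580 UMIs per cell, against 62.2% of monocytes and macrophages at a median of 3506. Ppbp was low in every class, at 34.9 ± 66.1 CPM in monocytes and 14.6 ± 21.2 in macrophages, and the monocyte values reached 271 and 86.4 CPM in the 2 mice of B2m-null isotype lane replicate 2. The mean of 13.9 ± 35.5 in plasmacytoid dendritic cells (n = 9) rested on 1 mouse of the same lane at 108. The neutrophils, the cells that CXCR2 ligands act on, had 3 cells with a Ppbp UMI of 1115.

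Cxcr2 was found mainly in neutrophils. They held 533 of its 676 UMIs (78.9%) while making up 1.23% of the cells, at 211 ± 112 CPM (n = 10), and 345 of 1115 neutrophils (30.9%, exact binomial 95% interval 28.2 to 33.8%) had a Cxcr2 UMI at a median depth of 1077. Among classes with 20 or more cells in a mouse the next mean was 2.66 CPM, in plasmacytoid dendritic cells. Only 36 of 47483 monocytes and macrophages (0.0758%) and 6 of 16354 CD8 T cells (0.0367%) had a Cxcr2 UMI. The Cxcr2 UMIs in monocytes and macrophages numbered 45, of which 14 and 12 came from the 2 mice of B2m-null isotype lane replicate 2, and no genotype contrast passed there. The small mast or basophil-like cluster, in which no mouse had 20 cells, held 17 Cxcr2 UMIs, and 14 of its 92 cells (15.2%, exact binomial 95% interval 8.58 to 24.2%) had one at a median depth of 1008.

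**Figure D1:**
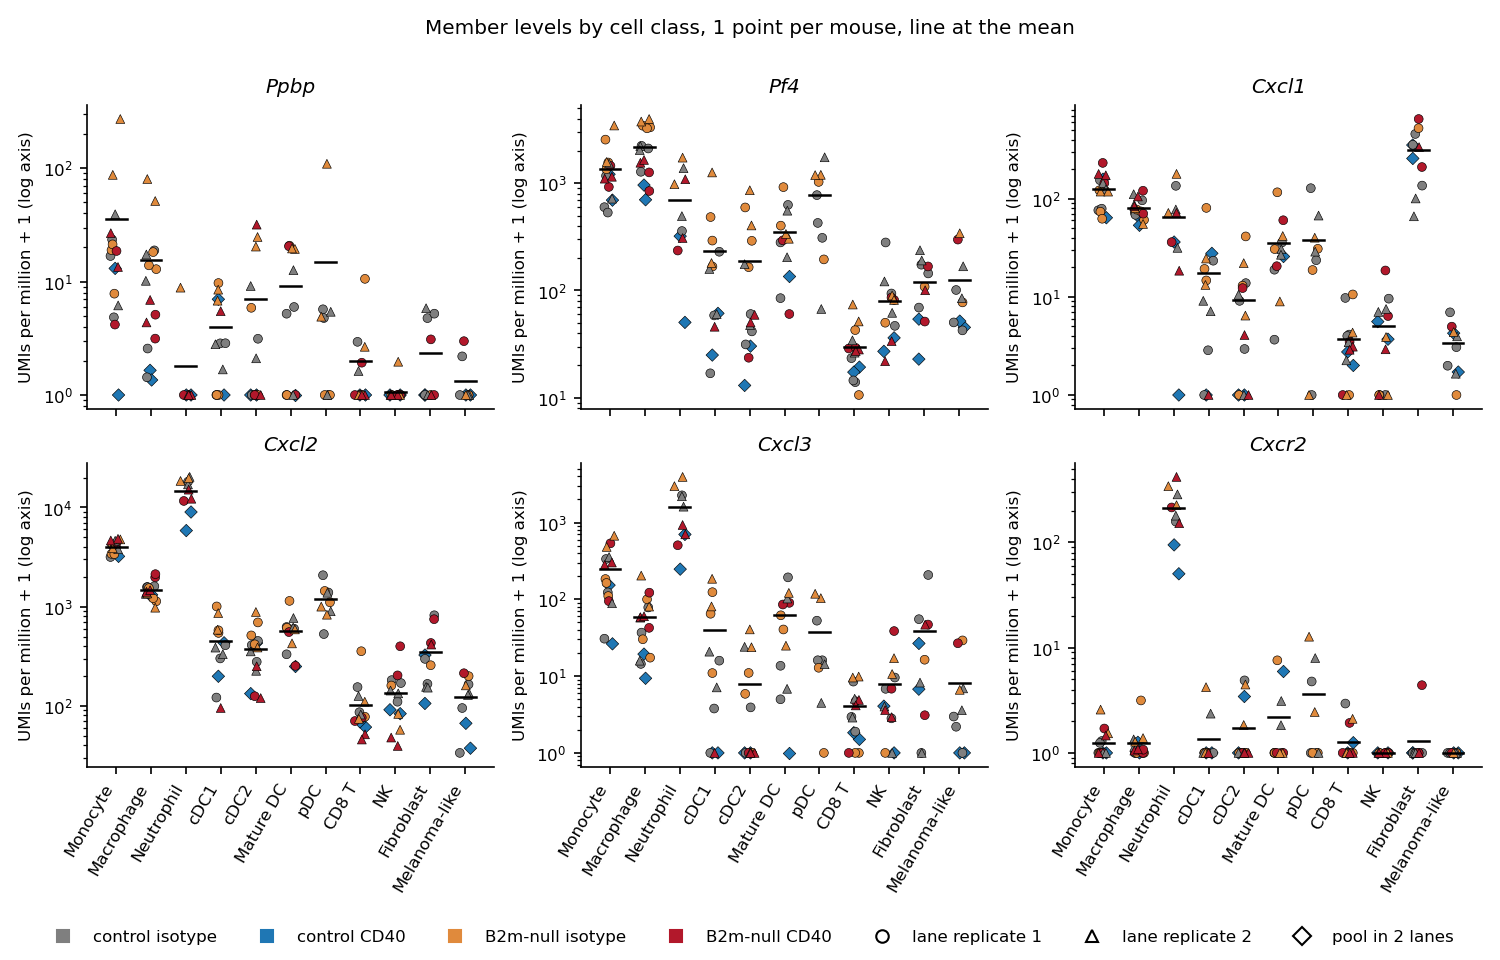
Levels of the 6 genes by cell class: each point is 1 mouse with 20 or more cells of the class, colour gives the group, shape the lane replicate, and the y axis is CPM plus 1 on a log scale, with a line at the mean. Cxcl2, Cxcl3 and Cxcr2 are highest in neutrophils, Cxcl1 in fibroblasts, and Pf4 and Ppbp in macrophages and monocytes.

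Within monocytes and macrophages the ligands were spread over different clusters, which were defined without the 6 genes. Cluster 5, a monocyte-named cluster led by Inhba, Nos2, Serpinb2, Arg1 and Thbs1, was highest for 4 of the 5 ligands: 72.4 ± 134 CPM of Ppbp, 195 ± 68.7 of Cxcl1, 5300 ± 961 of Cxcl2 and 508 ± 368 of Cxcl3 (n = 16). Its name is uncertain, since it rests on 4 raised monocyte markers and none of its 10 leading genes is among the markers. The monocyte levels above, and the values for monocyte clusters alone below, include it together with clusters 1 and 22, and Ppbp was at 5.26 CPM in cluster 1. Cluster 5 held 33.3% of the Ppbp UMIs and 36.4% of the Cxcl3 UMIs of the series while holding 5.67% of the cells. Cluster 4, macrophages led by the proteinase genes Mmp13 and Mmp12 and by Atp6v0d2, came next for Ppbp (37.5 ± 53.4 CPM) and Cxcl1 (126 ± 45.0) and held a further 35.3% of the Ppbp UMIs. These UMI shares pool lanes that differ widely. In sums per lane, with the 2 control CD40 lanes joined, B2m-null isotype lane replicate 2 was at 320 CPM of Ppbp in cluster 5 and 139 in cluster 4. Elsewhere Ppbp was at 7.85 to 73.5 and at 0.854 to 41.9. Cxcl3 in cluster 5 was at 1218 in that lane and at 121 to 565 elsewhere. Pf4 followed another order. It was highest in cluster 3, resident-like macrophages led by Lyve1, Cd163 and Cd209f (2947 ± 1109 CPM), and in cluster 11, led by Slc40a1, Fcrls and Gas6 (2725 ± 763), then in clusters 4, 5 and 7 (2578, 2319 and 2277), which overlap with them. It was at a low level in cluster 9, led by H2-M2, Nos2 and Saa3 (317 ± 141, n = 11), where Ppbp was at 1.29 ± 2.21 and Cxcl3 at 216 ± 235. Those 11 mice include 1 of the 5 B2m-null isotype mice, at 841 CPM of Cxcl3, so the ranks of cluster 9 are not compared with clusters that hold all 16 mice. Cluster 2, led by Ccl8, Ch25h and C1qa, had little Ppbp (1.36 ± 2.34) and Cxcl3 (9.73 ± 10.6) beside 1383 ± 496 of Pf4.

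**Figure D2:**
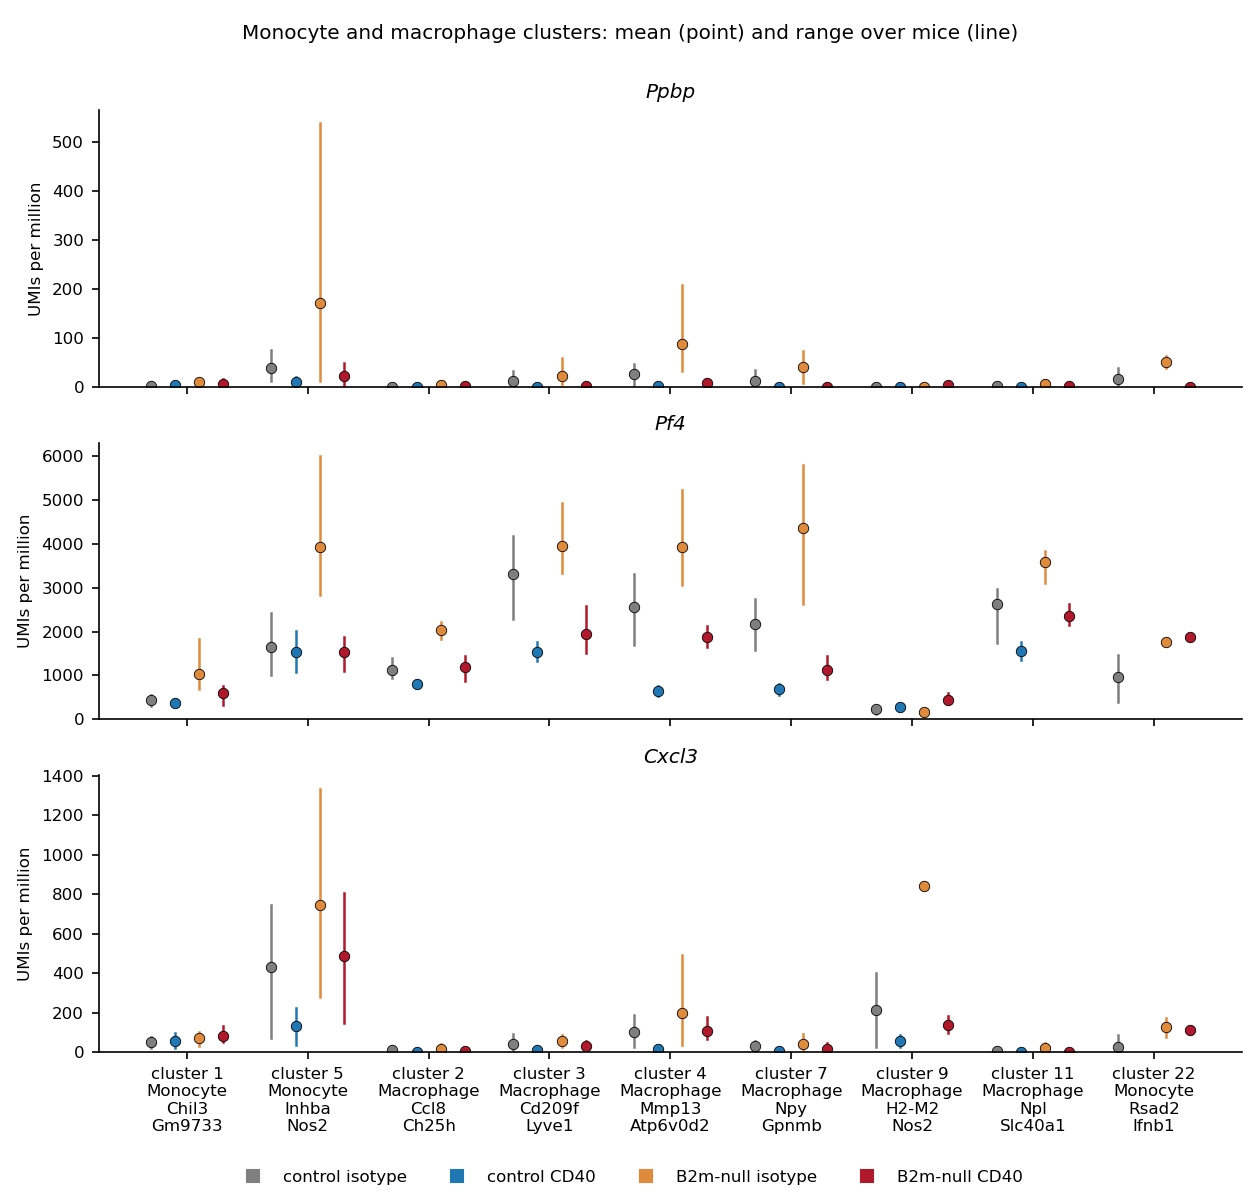
Ppbp, Pf4 and Cxcl3 in the monocyte and macrophage clusters: points are the means of the mice in each group with 20 or more cells of the cluster, lines run from the lowest to the highest mouse, and the y axis is CPM. Ppbp is highest in clusters 5 and 4 of the B2m-null isotype mice, and Pf4 has its highest means in the B2m-null isotype mice in every cluster shown except 9 and 22.

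Ppbp transcripts sat in few cells. Of 47483 monocytes and macrophages 1025 (2.16%, exact binomial 95% interval 2.03 to 2.29%) had a Ppbp UMI, against 8 of 16354 CD8 T cells (0.0489%). These intervals cover counting error only. The 1025 cells held 5588 UMIs, up to 111 in 1 cell, and 85 cells held 50% of them. For Cxcl3 336 cells held 50% of the UMIs, whereas for Pf4 it took 3206 cells and for Cxcl2 5059. Cells with a Ppbp UMI were Pf4-positive in 97.5% of cases, against 61.5% of the cells without, at a median of 5848 against 3468 UMIs per cell. With each cell thinned to 2000 UMIs and 13555 shallower cells left out, the shares were 96.2% of 528 cells against 59.5% of 33400. In the same thinned cells a Cxcl3 UMI was found in 38.3% of Ppbp-positive cells against 5.73% of the others, a Cxcl1 UMI in 17.8% against 9.40%, and a Cxcl2 UMI in 89.2% against 68.7%. Within cluster 5 Cxcl3 was found in 64.4% of the Ppbp-positive cells against 21.9% of the others, and within cluster 4 in 41.2% against 8.93%. These counts and shares pool the cells of all groups and lanes. In lane sums Ppbp was at 78.0 CPM in B2m-null isotype lane replicate 2 and at 0.714 to 17.3 elsewhere. Cxcl3 was at 221 CPM in that lane and at 14.8 to 125 elsewhere. Cells with and without Ppbp thus come from different mixes of mice, also within clusters 5 and 4. The part of this in the counts and shares was not tested, and they are a description.

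Platelets hold abundant Ppbp and Pf4 RNA, so other platelet genes were measured in the same cells. Of 10 genes taken here to define platelets and megakaryocytes, among them Itga2b, Gp9, Gp1ba, Gp5, Tubb1, Treml1 and Clec1b, 24 of the 1025 Ppbp-positive cells (2.34%) had a UMI, against 1.06% of the cells without Ppbp, at the unequal depths given above and not matched for them. The genes differed. Ppbp-positive cells, 2.16% of the set, held 10 of 20 UMIs of Gp9, 17 of 71 of Itga2b and 12 of 79 of Treml1. They held 19 of 348 of Clec1b and 3 of 73 of Gp6. Clec1b had the most UMIs of the 10, at 1.43 CPM over the pooled cells, so it weighs most in these shares and in the sums below. The remaining genes had at most 9 UMIs each. The 10 genes summed to 0.972 to 4.58 CPM per mouse in monocytes and macrophages, with 0 to 5 of the 10 at 0 in a group. The sum was 0.972 to 2.87 CPM in control isotype, 1.38 to 3.13 in control CD40, 1.10 to 2.31 in B2m-null isotype and 2.60 to 4.58 in B2m-null CD40 mice. The part of platelet RNA in the Ppbp levels was not tested.

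**Figure D3:**
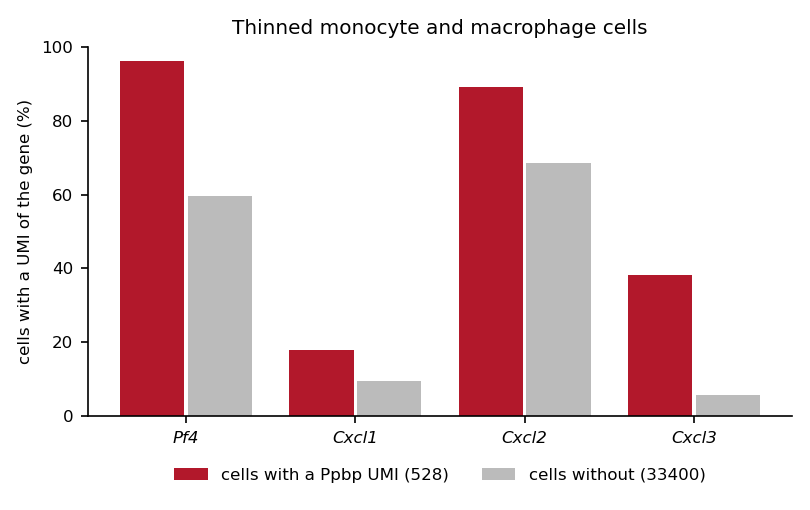
Percentage of thinned monocytes and macrophages with a UMI of Pf4, Cxcl1, Cxcl2 or Cxcl3, among 528 cells with a Ppbp UMI (red) and 33400 cells without (grey). The bars show all 4 genes more often in Ppbp-positive cells, with Cxcl3 at 38.3% against 5.73%. The cells are pooled over all groups and lanes, and those with and without Ppbp come from different mixes of mice.

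The monocytes and macrophages sat in different clusters in each group. Control isotype had 5881 monocytes and 7163 macrophages, control CD40 1039 and 9226, B2m-null isotype 5457 and 7917, and B2m-null CD40 2098 and 8702. Cluster 7 had 3085 cells in control CD40 against 488 in control isotype, and cluster 9 had 2653 in B2m-null CD40 against 35 in B2m-null isotype. Levels over all monocytes and macrophages include this difference in mix. Values with the mix held fixed are given beside them as differences in mean log2(CPM + 1), without a test. They weight the same 7 clusters (1, 2, 3, 4, 5, 7 and 11), those in which every mouse had 10 or more cells and which hold 89.5% of the UMIs, equally in all mice, and were added after the data were seen.

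Across the groups Ppbp was highest in B2m-null isotype and lowest in control CD40 mice. In monocytes and macrophages it was at 5.22, 2.64, 19.2, 21.2 and 8.02 CPM in the control isotype mice and at 1.96 and 0.341 in the control CD40 mice. It was at 12.6, 15.5, 14.7, 82.1 and 78.0 in the B2m-null isotype mice and at 2.29, 5.36, 6.20 and 6.90 in the B2m-null CD40 mice. Neither CD40 group overlapped with its own isotype group. The 2 highest values, 82.1 and 78.0, belong to the mice of B2m-null isotype lane replicate 2, and the other 3 mice of that group lie within the range of the control isotype mice. The log2 change with anti-CD40 was -3.83 (SE 1.30) in control and -2.83 (SE 0.73) in B2m-null tumours, the latter -1.08 without B2m-null isotype lane replicate 2, and the former -4.94 or -2.54 with 1 or the other control CD40 mouse left out. The control CD40 values rest on 17 and 11 UMIs. In these contrasts 20.4% of 12604 genes in control tumours and 34.0% in B2m-null tumours passed an adjusted p of 0.05 in edgeR's quasi-likelihood test. The rule used these contrasts, so nothing is read from those shares for the 6 genes.

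Within clusters 2, 3, 4, 5, 7 and 11 the mean of Ppbp was lower under CD40 than under isotype in both genotypes. In cluster 5 its mean was 37.8 ± 25.8 CPM in control isotype (n = 5), 9.68 ± 13.7 in control CD40 (n = 2), 172 ± 219 in B2m-null isotype (n = 5) and 22.5 ± 19.6 in B2m-null CD40 mice (n = 4). The CD40 and isotype ranges overlapped there in both genotypes. In cluster 4 the corresponding means were 26.0 ± 22.6, 1.68 ± 1.87, 87.3 ± 73.2 and 7.51 ± 6.32, and the ranges overlapped in control but not in B2m-null tumours (32.8 to 207 against 0 to 14.9). In cluster 3 they were 11.9 ± 13.6, 0.275 ± 0.389, 22.6 ± 22.6 and 2.10 ± 2.63, and in cluster 7 12.7 ± 12.5, 0.322 ± 0.155, 40.7 ± 32.7 and 0, with no overlap in B2m-null tumours in cluster 7 among cells assigned to a mouse. In lane sums, which add unassigned cells, B2m-null CD40 lane replicate 1 was at 37.8 CPM there, from 1 cell with Ppbp, against 25.2 and 59.7 in the B2m-null isotype lanes. Clusters 1 and 9 did not show this in both genotypes. Ppbp was low in clusters 1, 2, 9 and 11 alike, at means over mice of 5.26, 1.36, 1.29 and 2.79 CPM. In cluster 2 the control means were 0.471 under isotype and 0.226 under CD40. In lane sums control CD40 was at 0.385 there, between the control isotype lanes at 0.329 and 0.744. In cluster 1 the control mean was 1.49 ± 1.50 under isotype and 3.16 ± 4.46 under CD40, and the B2m-null mean 9.49 ± 3.86 and 5.75 ± 6.48. In cluster 9 it was 0 and 0.095 in control tumours, and 0 in the 1 B2m-null isotype mouse against 3.50 ± 2.47 in B2m-null CD40 mice (n = 4). With the cluster mix held fixed the log2 difference in mean level was -2.14 in control and -2.44 in B2m-null tumours. The share of cells with a Ppbp UMI was 1.69% in control isotype, 0.156% in control CD40, 5.03% in B2m-null isotype and 1.08% in B2m-null CD40 cells. The median depths were 3291, 2623, 3628 and 4512 UMIs per cell in the same order, and these shares are not matched for depth. Between tumour genotypes the Ppbp difference did not pass: under isotype the log2 change was 1.90 higher in B2m-null tumours (SE 0.62, 95% interval 0.54 to 3.25, edgeR adjusted p = 0.0838), where 6.98% of 12604 genes passed, only 0.15 without B2m-null isotype lane replicate 2, and 1.60 in mean level with the cluster mix held fixed. Under CD40 it was 2.89 (SE 1.37, edgeR adjusted p = 0.193), where 9.92% of genes passed, and 1.30 with the mix held fixed. The difference between the changes of Ppbp in the 2 genotypes was 0.99 (edgeR adjusted p = 0.712), which turned to -0.30 without 1 control CD40 mouse.

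Pf4 was higher in the monocytes and macrophages of B2m-null than of control tumours under isotype, and lower with anti-CD40 in both genotypes. It was at 1069, 1439, 1847, 2073 and 1665 CPM in the control isotype mice and at 3248, 2728, 2858, 2916 and 3923 in the B2m-null isotype mice, which do not overlap. The log2 change was 0.90 (SE 0.19, edgeR adjusted p = 0.0118), a fold of 1.87. The call was lost with lanes as the unit (0.89, edgeR adjusted p = 0.153), in the monocyte clusters alone (1.16, 0.106), without control isotype lane replicate 1 (0.70, 0.266) and without B2m-null isotype lane replicate 1 (1.07, 0.0927). Under CD40 Pf4 was at 992 and 702 CPM in control and at 1216, 904, 1499 and 1576 in B2m-null tumours, a log2 difference of 0.66 (SE 0.26) that did not pass (edgeR adjusted p = 0.115). The change with anti-CD40, given as a description, was -0.81 (SE 0.25) in control and -1.06 (SE 0.20) in B2m-null tumours, with no overlap between CD40 and isotype mice in either. With the cluster mix held fixed the differences in mean level were -0.99 and -0.97, and 0.65 between genotypes under isotype and 0.67 under CD40. The 2 changes did not differ detectably (interaction -0.24, SE 0.31, 95% interval -0.92 to 0.43, edgeR adjusted p = 0.638).

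The fall of Pf4 was uneven over the clusters. In cluster 4 Pf4 was at 2550 ± 595 CPM in control isotype and 656 ± 159 in control CD40 mice, and in cluster 7 at 2178 ± 552 and 683 ± 167. In cluster 5 the same means were 1645 ± 531 and 1545 ± 672, which overlap, and in cluster 1, monocytes led by Chil3 and Vcan, 432 ± 121 and 379 ± 56.6. In B2m-null tumours the cluster 5 means were 3925 ± 1326 under isotype and 1541 ± 322 under CD40. Over the monocyte clusters alone the Pf4 change in control tumours was 0.13, against -0.81 over all monocytes and macrophages. The summed level of 12 genes of resident-like macrophages was 1950 to 3148 CPM in control isotype, 4074 to 6307 in B2m-null isotype, 2035 to 2565 in control CD40 and 947 to 2582 in B2m-null CD40 mice. These ranges did not overlap between the isotype groups or between isotype and CD40 in B2m-null tumours, while in control tumours the CD40 values lay within the isotype range. Their part in the Pf4 differences was not tested.

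**Figure D4:**
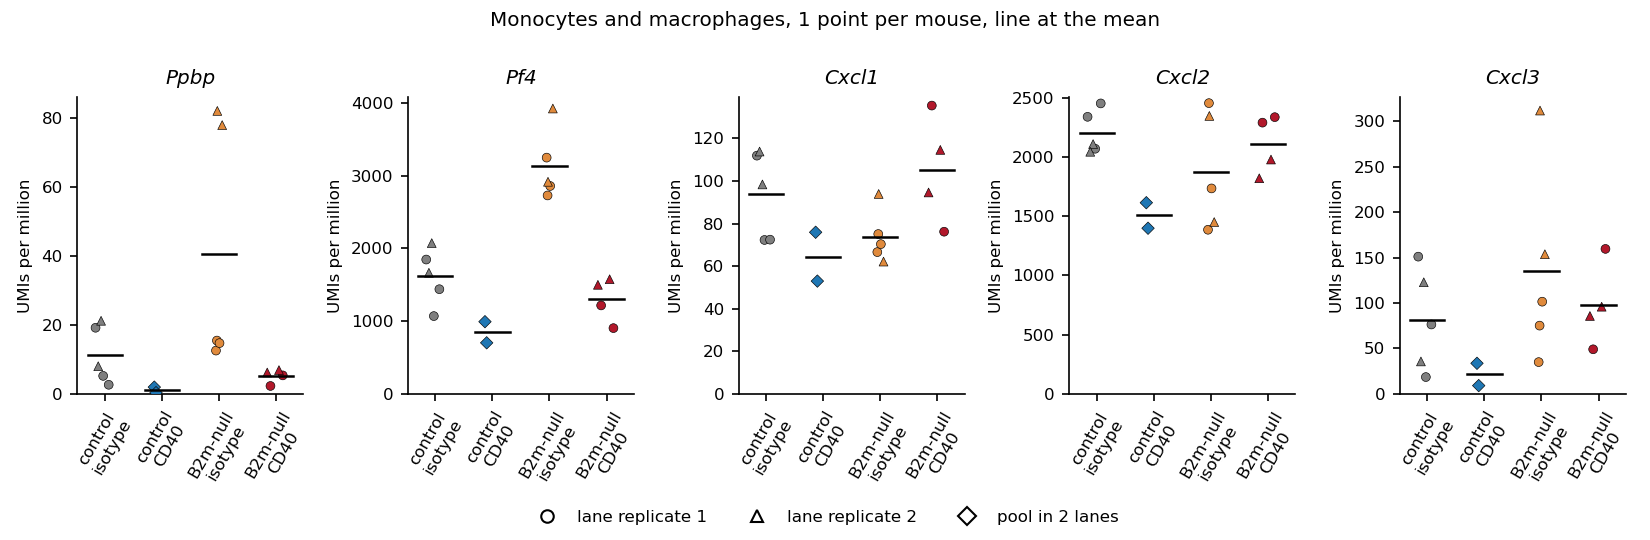
Levels of the 5 ligands in monocytes and macrophages, 1 point per mouse, with a line at the group mean and CPM on a linear axis from 0; circles and triangles are lane replicates 1 and 2, diamonds the control CD40 pool. Ppbp in B2m-null isotype mice splits into 12.6 to 15.5 in lane replicate 1 and 78.0 to 82.1 in lane replicate 2, and all 5 B2m-null isotype mice are above the control isotype mice for Pf4.

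The fitted changes of Cxcl1 and Cxcl2 with anti-CD40 were negative in control and positive in B2m-null tumours. Cxcl1 in monocytes and macrophages was at 72.3, 72.5, 112, 98.4 and 114 CPM in control isotype and 75.9 and 53.0 in control CD40 mice, but at 66.6, 75.1, 70.4, 93.9 and 62.2 in B2m-null isotype and 136, 76.2, 94.7 and 115 in B2m-null CD40 mice. Its log2 change was -0.43 (SE 0.23) in control and 0.71 (SE 0.18) in B2m-null tumours, with overlapping groups in each. With the cluster mix held fixed the differences in mean level were -0.65, with no overlap, and 0.45. The difference between these changes was 1.14 (SE 0.30, 95% interval 0.49 to 1.78, edgeR adjusted p = 0.0179), in a contrast where 16.6% of 12604 genes passed. It is made from the 2 contrasts that the selection used, so its p-value is not free of that selection and no conclusion is drawn from it. The call was lost in the monocyte clusters alone (1.00, adjusted p = 0.235), without 1 of the 2 control CD40 mice (0.94, 0.113), without B2m-null isotype lane replicate 1 (1.04, 0.096) and without B2m-null CD40 lane replicate 2 (1.10, 0.0515).

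Cxcl2 was at 2068, 2451, 2338, 2108 and 2043 CPM in control isotype and at 1613 and 1398 in control CD40 mice, which do not overlap. In B2m-null tumours it was at 1385, 2453, 1734, 2346 and 1450 under isotype and at 2289, 2335, 1819 and 1977 under CD40, within the isotype range. The log2 changes were -0.42 (SE 0.19) and 0.38 (SE 0.15), and -0.34 and 0.12 as differences in mean level with the cluster mix held fixed. In monocytes alone the control means of Cxcl2 were 3834 ± 573 under isotype and 3587 ± 530 under CD40, which overlap, and in macrophages 1498 ± 120 and 1313 ± 4.97, which do not. The interaction over all monocytes and macrophages, made from the same 2 contrasts that the selection used, was 0.80 (SE 0.24, edgeR adjusted p = 0.0297). This call was lost with lanes as the unit, where control CD40 is 1 unit (0.87, adjusted p = 0.0882), in the monocyte clusters alone (0.41, 0.201), at clustering resolution 2 (0.67, 0.0742), when either control CD40 mouse was left out (0.87, 0.101 and 0.75, 0.12), without control isotype lane replicate 1 (0.72, 0.124), without B2m-null CD40 lane replicate 1 (0.69, 0.0987) and without 1 mouse of each of those lanes (0.79, 0.0505 and 0.75, 0.0576). Both interactions share the 2 control CD40 mice. Markers of other cells also moved in these sums. T cell markers (6 genes) were at 10.8 to 20.9 CPM in control isotype, 39.6 to 54.0 in control CD40, 9.28 to 35.2 in B2m-null isotype and 24.5 to 40.2 in B2m-null CD40 mice. Neutrophil markers (9 genes) were at 42.9 to 73.0, 80.1 to 84.3, 34.6 to 69.5 and 69.2 to 132 in the same order, and the 4 neutrophil granule genes named below at 0.416 to 0.910, 1.58 to 2.42, 0.364 to 1.20 and 1.60 to 3.92. Melanoma markers (7 genes) were at 86.8 to 115, 88.8 to 103, 89.5 to 121 and 55.2 to 66.5. Their part in the ligand changes was not tested. Neither gene passed between genotypes: under isotype Cxcl1 was -0.40 and Cxcl2 -0.29 (edgeR adjusted p = 0.174 and 0.211), and under CD40 they were 0.74 and 0.51 (edgeR adjusted p = 0.0631 and 0.101). With the mix held fixed these were -0.34, -0.21, 0.76 and 0.26.

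Cxcl3 in monocytes and macrophages ranged from 18.5 to 151 CPM in control isotype, was 33.7 and 9.09 in control CD40, ranged from 35.0 to 312 in B2m-null isotype and from 49.1 to 160 in B2m-null CD40 mice. The log2 change with anti-CD40 was -1.90 (SE 0.98) in control and -0.30 (SE 0.69) in B2m-null tumours, and the latter was 0.82 without B2m-null isotype lane replicate 2. With the cluster mix held fixed the differences in mean level were -1.61 and -0.60. Its interaction (1.60, SE 1.16, 95% interval -0.93 to 4.13, edgeR adjusted p = 0.375) and its genotype differences under isotype (0.73, SE 0.65, adjusted p = 0.556) and CD40 (2.33, SE 1.02, adjusted p = 0.162) did not pass. With the mix held fixed the genotype differences were 0.92 and 1.93.

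Of 17 other early inflammatory genes, all tested in monocytes and macrophages, none passed with anti-CD40 in control tumours, and 5 rose in B2m-null tumours, by edgeR with adjustment over all genes. Over all genes 20.4% and 34.0% passed in these contrasts, so neither count is above the share over all genes. In control tumours 3 had an unadjusted p under 0.05 and DESeq2 called 1. The 5 include Il1a, an interleukin-1 gene (log2 change 1.42, adjusted p = 0.000364), the chemokine gene Cxcl10 (1.61, 0.00473), the neutrophil growth factor gene Csf3 (1.57, 0.0314) and the adhesion molecule gene Icam1 (1.13, 0.000589). Their median log2 change was -0.25 in control and 0.45 in B2m-null tumours, where the medians over all genes tested were -0.005 and -0.017. The interaction passed for 4 of the 17, where 16.6% of all genes passed: Cxcl10 (2.50, adjusted p = 0.0165), Il1b (2.12, 0.0469), Icam1 (1.23, 0.0159) and the NF-kB inhibitor gene Nfkbia (0.96, 0.0352). For these 4 the change with anti-CD40 was more positive in B2m-null than in control tumours. Under isotype, where 6.98% of all genes passed, 4 were lower in B2m-null tumours: Cxcl10 (-1.69, adjusted p = 0.0169), Tnf (-1.02, 0.00788), Ccl4 (-0.91, 0.0118) and Icam1 (-0.79, 0.0238). The list was drawn up with results of these data known.

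Of the 12 genes of resident-like macrophages 4 were higher in B2m-null tumours under isotype, where 6.98% of all genes passed: the scavenger receptor genes Cd163 (log2 change 1.61, edgeR adjusted p = 0.0343) and Stab1 (0.96, 0.0314), Gas6, a ligand of the Mer receptor family (1.30, 0.0451), and the mannose receptor gene Mrc1 (0.83, 0.0131). With anti-CD40 1 of 12 fell in control tumours, where 20.4% of all genes passed, namely Mrc1 (-0.90, adjusted p = 0.0152). In B2m-null tumours, where 34.0% of all genes passed, 8 of 12 fell, among them Cd163 (-2.24, 0.00246), Lyve1 (-1.78, 0.0334), Mrc1 (-1.65, 2.59e-05) and Cbr2 (-1.42, 0.0127). The interaction passed for none of the 12 in edgeR, with 2 at an unadjusted p under 0.05 and 1 called by DESeq2. Their median log2 change was -0.51 in control and -1.34 in B2m-null tumours.

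For the remaining lists the shares over all genes were the same, 20.4% and 34.0% with anti-CD40 in control and B2m-null tumours, 16.6% for the interaction, and 6.98% and 9.92% between genotypes under isotype and CD40. Of 10 other genes of the CXCR2 pathway 7 were tested. Cxcl5, a further CXCR2 ligand, fell with anti-CD40 in B2m-null tumours (log2 change -2.06, edgeR adjusted p = 0.046). That call was lost with the replicate block (-1.96, adjusted p = 0.0579), in DESeq2 (-1.43, 0.197) and without B2m-null isotype lane replicate 2 (-0.97, 0.572). Gnai3, a G protein subunit gene, also fell (-0.46, 0.000105), while Gnai2 rose (0.27, 0.00728). None of the 7 passed in control tumours in edgeR or DESeq2, with 1 at an unadjusted p under 0.05, and the interaction passed for Gnai2 (0.42, 0.0189) and Gnai3 (-0.34, 0.0361). Between genotypes under CD40 Gnai2 was higher in B2m-null tumours (0.30, adjusted p = 0.0484). Of 6 genes for proteoglycans that bind these chemokines, the syndecan gene Sdc1 rose with anti-CD40 in control (1.74, 0.000188) and B2m-null tumours (1.83, 3.67e-05), and the versican gene Vcan fell (-2.37, 0.0105 and -1.43, 0.0163). Vcan is also a monocyte marker in the lists used here and a leading gene of cluster 1, and the part of the cluster mix in its fall was not tested. Of 13 platelet and megakaryocyte genes 4 could be tested, and only Gng11 passed with anti-CD40, rising in both (2.35, 0.000819 and 1.74, 0.00188). It is not among the 10 defining genes above and had 18796 UMIs in monocytes and macrophages together (77.4 CPM). At clustering resolution 2 it was among the leading genes of a cluster led by Npy, Ubd and Gpnmb. Its rise is therefore not read as a measure of platelets, and the part of the cluster mix in it was not tested. Of 12 dissociation and stress genes, Dnajb1 rose in both (0.40, 0.0234 and 0.28, 0.0361), Hsp90aa1 fell in control (-0.45, 0.00722) and Jun in B2m-null tumours (-0.32, 0.0167), and Atf3 was lower in B2m-null than in control tumours under isotype (-0.46, 0.0361).

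In neutrophils Cxcl3 fell with anti-CD40 in both tumour genotypes. It was at 2260, 2196 and 1610 CPM in the control isotype mice and at 699 and 246 in the control CD40 mice. It was at 2979 and 3931 in the B2m-null isotype mice and at 505, 701 and 928 in the B2m-null CD40 mice. Every isotype mouse was above every CD40 mouse. It fell by 2.00 on the log2 scale (SE 0.41, edgeR adjusted p = 0.0166) in control tumours, where 1.52% of 3891 genes passed, and by 2.11 (SE 0.36, edgeR adjusted p = 0.0122) in B2m-null tumours, where 0.283% passed. The 2 changes did not differ detectably (interaction -0.12, SE 0.53, 95% interval -1.42 to 1.19, edgeR adjusted p = 0.964), in a contrast where 0.180% passed. With lanes as the unit, which adds cells without a mouse, the call in B2m-null tumours held over 2 lanes against 2 (edgeR adjusted p = 0.000363). Control CD40 is then 1 unit whose spread is taken from the other groups, so lanes are no check on a call that holds in control tumours. Both B2m-null isotype mice come from lane replicate 2, and in lane sums Cxcl3 was at 1871 and 3166 CPM in lane replicates 1 and 2 of that group against 622 and 736 in the B2m-null CD40 lanes. With 28 to 118 neutrophils per mouse, leaving out single mice took the adjusted p to 0.207 at most in control tumours (log2 change -1.41 without 1 control CD40 mouse), where the call was lost without any of 4 mice. In control tumours it was also lost with a minimum of 10 cells per mouse in place of 20 (-1.84, adjusted p = 0.0575). In B2m-null tumours the adjusted p without single mice reached 0.118, and the call was lost without either of 2 mice, 1 of B2m-null isotype and 1 of B2m-null CD40.

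Cxcl2 in neutrophils fell in control tumours, from 18190, 17074 and 20324 CPM under isotype to 8994 and 5846 under CD40 (log2 change -1.20, SE 0.24, edgeR adjusted p = 0.00978). The call was lost with lanes as the unit, again with 1 control CD40 unit (-0.89, adjusted p = 0.261), with a minimum of 10 cells (-0.98, 0.313), without 1 control CD40 mouse (-0.93, 0.234) and without either of 2 control isotype mice (-1.23, 0.0577 and -1.10, 0.0797). In B2m-null tumours Cxcl2 was at 18505 and 19723 under isotype and at 11629, 12243 and 15121 under CD40, which do not overlap, and the change did not pass (-0.40, SE 0.23, edgeR adjusted p = 0.578). The difference between the 2 changes did not pass either (0.80, SE 0.33, edgeR adjusted p = 0.495). Cxcl1 was sparse in these cells, at 0 to 178 CPM and at most 34 UMIs per mouse, and did not pass in any neutrophil contrast.

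**Figure D5:**
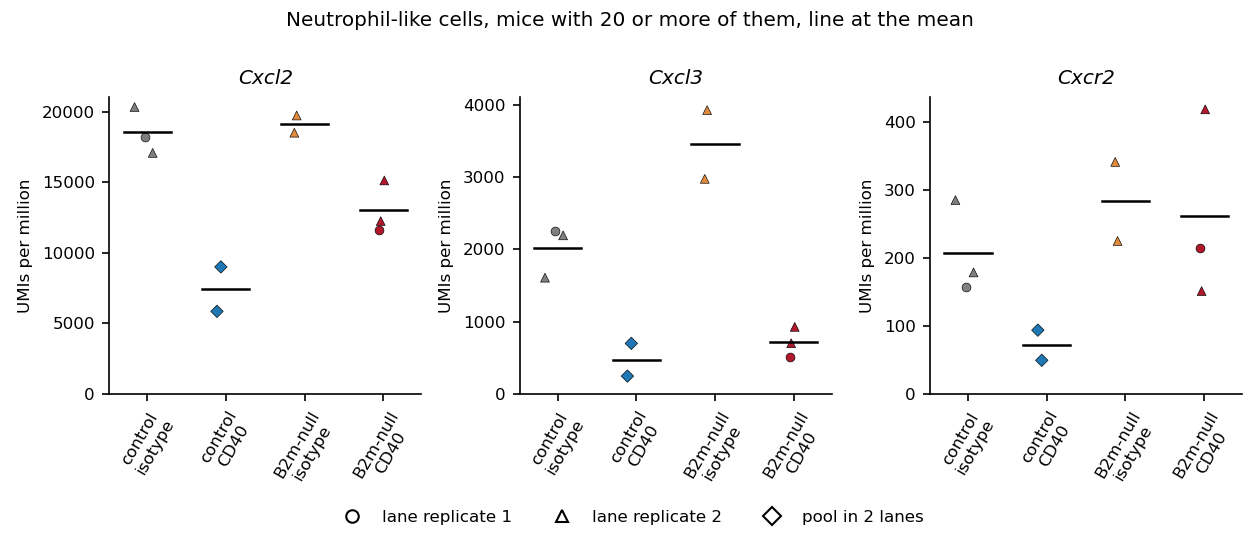
Cxcl2, Cxcl3 and Cxcr2 in neutrophil-like cells, 1 point per mouse with 20 or more of them, with a line at the group mean and CPM on a linear axis from 0; shapes give the lane replicate. All isotype mice are above all CD40 mice for Cxcl3, and the 2 control CD40 mice are lowest for Cxcl2 and Cxcr2.

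Other measures moved with the neutrophil results. The summed level of 9 neutrophil markers was 53782 and 77561 CPM in the control CD40 mice and 15278 to 27833 in the control isotype mice. In B2m-null tumours it was 20503 to 79057 under CD40 and 16540 to 27623 under isotype. Granule genes of younger neutrophils (Camp, Ngp, Ltf and Lcn2, chosen after their values were seen) summed to 12119 and 26248 CPM in control CD40 against 204 to 12910 in control isotype mice, and to 593 to 20384 against 120 and 3505 in B2m-null tumours. The 12 dissociation and stress genes were lower in CD40 mice, at 7457 and 12647 against 15405 to 17695 CPM in control and at 10451 to 13063 against 14813 and 16441 in B2m-null tumours. Macrophage markers were at 716 and 3756 against 3669 to 5094 CPM in control tumours, and the groups overlapped in both genotypes. T-cell markers were higher, at 1028 and 1300 against 51.1 to 67.1 CPM in control and 257 to 658 against 31.4 and 243 in B2m-null tumours. The part of these in the Cxcl2 and Cxcl3 changes was not tested. Of 15 early inflammatory genes tested in neutrophils, the prostaglandin synthase gene Ptgs2 fell in control tumours (log2 change -1.40, edgeR adjusted p = 0.0474) and none of the other 14 passed in either CD40 contrast.

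Cxcr2 itself was at 157, 179 and 285 CPM in the neutrophils of control isotype mice and at 49.4 and 93.8 in control CD40 mice, which rest on 6 and 24 UMIs. It was at 341 and 225 in B2m-null isotype and 214, 151 and 419 in B2m-null CD40 mice. The fall in control tumours did not pass (log2 change -1.36, SE 0.52, edgeR adjusted p = 0.228). Under CD40 the B2m-null mice were above the control mice, and this difference did not pass in edgeR (1.82, SE 0.48, adjusted p = 0.114), where 0.411% of genes passed. DESeq2 gave 1.88 with an adjusted p of 0.0434. Between genotypes under isotype none of 3891 genes passed in neutrophils (0%) by edgeR or by DESeq2, with 139 and 68 genes at an unadjusted p under 0.05, and Cxcl3 was 0.82 higher in B2m-null tumours (SE 0.36, 95% interval -0.07 to 1.71, edgeR adjusted p = 1.00).

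In the stromal cells the levels were compared between genotypes by exact permutation of mice with 10 or more cells. Fibroblast Cxcl1 was at 442 ± 113 CPM in B2m-null isotype (n = 2) and 222 ± 172 in control isotype mice (n = 5), a difference of 1.35 in mean log2(CPM + 1) with a two-sided exact permutation p of 0.190, where the design allows 0.0476 at the lowest. Under CD40 it was 334 ± 223 (n = 4) and 304 ± 67.3 (n = 2). Under CD40 the lowest p the design allows is 0.0667. No comparison could pass 0.05 after adjustment over the 16 made in fibroblasts and melanoma-like cells, and all had an adjusted p of 1. Melanoma-like cells had Pf4 at 213 ± 133 CPM in B2m-null (n = 3) and 88.3 ± 50.2 in control isotype mice (n = 5), with a two-sided exact permutation p of 0.143 on mean log2(CPM + 1), where the design allows 0.0179 at the lowest. Macrophage markers summed to 905 to 1542 CPM there in B2m-null and 1116 to 1901 in control isotype mice, and resident-like macrophage genes to 216 to 416 and 96.7 to 312, and their part in the ligand levels was not tested. In the same mice they had Cxcl2 at 135 ± 78.8 CPM in B2m-null (n = 3) and 110 ± 49.8 in control isotype mice (n = 5) and Cxcl1 at 7.24 ± 9.77 and 2.52 ± 2.13. Endothelial-like cells, and melanoma-like cells under CD40, had under 2 mice in a group and were not compared.

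The genes whose levels in monocytes and macrophages followed each ligand most closely over the 16 mice differed between ligands. For Ppbp the closest of 7523 genes was Pf4 (Pearson r 0.864 of log2 levels), then Aldh9a1 (0.855) and Vps13d (0.845). For Pf4 they were Rnase4 (0.950), Npl (0.929) and Emp1 (0.922). For Cxcl2 they were Nfkbia (0.974), Rab11fip1 (0.947) and Dusp5 (0.941), for Cxcl3 Mmp8 (0.842), Arg1 (0.827) and Egln3 (0.825), and for Cxcl1 Ppp1r12c (0.847), Actg1 (0.809) and Odc1 (0.772). The mice span the 4 groups and share lanes, so these values include the group differences. With group means removed, r was 0.619 for Ppbp with Pf4, 0.753 for Ppbp with Cxcl3 and 0.954 for Cxcl2 with Nfkbia. Cxcl1 and Cxcl2 correlated at 0.630 over all mice and at 0.280 with group means removed. Removing group means leaves the differences between lanes of a group. In B2m-null isotype lane sums Ppbp was at 17.3 and 78.0 CPM and Cxcl3 at 81.2 and 221 in lane replicates 1 and 2. The part of such lane differences in these correlations was not tested.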

How the data were processed

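The deposited matrices hold UMI counts per gene and cell barcode, with hashtag antibody counts beside them, as the file headers and whole values show. Per the submitters' processing notes, the authors used bcl2fastq 2.20.0.422 and Cell Ranger 3.0.0 with build mm10. Barcodes with fewer than 200 detected genes or above 10% mitochondrial UMIs were dropped. Barcodes were assigned to mice from the hashtag counts, and 10564 hashtag doublets were removed. No doublet caller was run beyond this, so doublets within 1 mouse remain. Cells were clustered (scanpy 1.11.5, leidenalg 0.10.2, 2000 variable genes without the 6 genes, 40 components, resolution 1) and named from marker lists. Counts were summed per mouse with at least 20 cells of a class and tested over all genes with edgeR 4.0.16 (TMM, quasi-likelihood, Benjamini-Hochberg), all groups in 1 fit, after a check on simulated data. Standard errors are the log2 change divided by the square root of F, and 95% intervals use t at the residual degrees of freedom among mice. DESeq2 1.42.0 was an alternative. Fibroblast and melanoma-like levels (pseudocount 1) were compared by exact permutation. The members and gene lists were chosen with earlier results of these data known. Named list genes are up to 4 with the largest change per list and contrast among those at an adjusted p under 0.05, plus any that passed in both CD40 contrasts with the largest summed change. Genes most like a member are the 3 with the highest correlation among those of mean CPM of at least 10, for members of at least 5. Promoter windows are from the RefSeq table of GRCm38.p6. Alternatives changed scaling, test, filters, unit, cell set and clustering, and left out mice and lanes. The labels give no culture or animal beyond the hashtags, so mice of 1 lane share its library preparation.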

Additional observations from a re-analysis of the deposited data

Results flagged for a closer look

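The change of Cxcl1 with anti-CD40 in monocytes and macrophages differed between the tumour genotypes by 1.14 on the log2 scale, and that of Cxcl2 by 0.80, each by the edgeR test of the difference itself (adjusted p = 0.0179 and 0.0297). Each difference is made from the 2 contrasts that the selection used, so these p-values are not free of that selection and no conclusion is drawn from them. The fitted changes were negative in control and positive in B2m-null tumours, where the CD40 and isotype mice overlap for both genes, and both tests share the same 2 control CD40 mice. The Cxcl2 call was lost with lanes as the unit (0.0882), at clustering resolution 2 (0.0742) and in the monocyte clusters alone (0.201), and the Cxcl1 call in the monocyte clusters alone (0.235), beside losses without single mice or lanes. In fibroblast-like cells 1 control isotype mouse of lane replicate 1 stood apart from the other 4 mice of its group, with Cxcl2 at 818 CPM against 152, 154, 166 and 297, and Cxcl3 at 207 CPM against 0, 0, 7.24 and 54.1. Among 26 sets of mice examined, these 2 held a value so far from the rest, which chance gives in about 1 in 20.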

How the results depend on the processing

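Of 379 values of the 6 genes recomputed under settings that leave out no mouse or lane, 345 kept their direction, their side of the threshold and, without a test, their size, 9 fell short of the threshold, 5 came to pass it, 17 moved in size and 3 changed sign. Of the 5 that came to pass, only the Cxcr2 difference in neutrophils under CD40 with DESeq2 is given above, and the others are not named. The cause of the changes below was not tested. In the monocyte clusters alone the log2 change of Ppbp with anti-CD40 in control tumours was -1.71 (-2.11 with the cluster mix held fixed over the clusters each mouse had, -2.14 over the 7 shared ones), that of Pf4 was 0.13 in control and -0.67 in B2m-null tumours, that of Cxcl3 in B2m-null tumours 0.00, the Ppbp interaction -0.73, the Pf4 genotype difference under isotype 1.16, and the interactions of Cxcl1 and Cxcl2 1.00 and 0.41. The Cxcl2 interaction was 0.67 at clustering resolution 2. With lanes as the unit the Pf4 genotype difference was 0.89, the Cxcl2 interaction 0.87 and the neutrophil Cxcl2 change in control tumours -0.89. With a minimum of 10 neutrophils per mouse the latter was -0.98 and the Cxcl3 change -1.84. With lanes as the unit, where control CD40 is 1 unit whose spread is taken from the other groups, the counts of genes past the threshold in monocytes and macrophages went from 2575 to 885 for CD40 in control tumours, from 4289 to 2541 for CD40 in B2m-null tumours, from 880 to 117 and 1250 to 22 between genotypes under isotype and CD40, and from 2086 to 90 for the interaction. In the monocyte clusters alone the same 5 counts were 602, 2118, 370, 369 and 1012. Resolution 2 gave 645 between genotypes under CD40, and the stricter cell filter 388 under isotype. In neutrophils the counts were 59, 11, 0, 16 and 7 in the same order. Without a low-count filter they were 111, 61, 7, 50 and 31, a minimum of 10 cells gave 32 for the first and 7 for the fourth, lanes as the unit gave 92 for the second and 15 for the fifth, and DESeq2 gave 13 for the fifth.

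With single mice or lanes left out, the change of Ppbp with anti-CD40 ran from -4.94 to -2.54 in control and from -3.64 to -1.08 in B2m-null tumours, and that of Pf4 from -1.03 to -0.62 and from -1.39 to -0.78. The Pf4 genotype difference under isotype ran from 0.70 to 1.07, the Cxcl1 interaction from 0.94 to 1.37 and the Cxcl2 interaction from 0.69 to 0.93. In neutrophils the Cxcl3 change ran from -2.90 to -1.41 in control and from -2.42 to -1.88 in B2m-null tumours, and the Cxcl2 change in control tumours from -1.54 to -0.93. Signs changed for the Cxcl3 genotype difference under isotype (-0.39 without B2m-null isotype lane replicate 2, from -0.39 to 1.50 over all), the Cxcl3 change in B2m-null tumours (0.82 without that lane and 0.31 without 1 of its mice, from -1.05 to 0.82), the Pf4 interaction (0.03 without B2m-null CD40 lane replicate 1, from -0.58) and the Ppbp interaction (-0.30 without 1 control CD40 mouse, up to 2.69). Gene counts in monocytes and macrophages ran from 926 to 3007 for CD40 in control and from 2472 to 4255 in B2m-null tumours, from 6 to 1466 and 167 to 1712 between genotypes under isotype and CD40, and from 522 to 2873 for the interaction. In neutrophils they ran from 12 to 71, 7 to 18, 0 to 1, 0 to 23 and 0 to 8.

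The labels share lane replicate numbers, but a number marks no common animal, and the deviations of same-numbered lanes correlated at 0.018, 0.297 and 0.303 over 7521 genes, so the numbers were not taken to pair the lanes. With the lane number as a replicate block, without control CD40, the change with anti-CD40 in B2m-null tumours was -2.70 for Ppbp and -1.12 for Pf4, the Pf4 genotype difference 0.91 (edgeR adjusted p = 0.00362) and the gene counts 924 and 4266, and no call of the 6 genes changed. The fall of Cxcl5 there missed the threshold with the block (-1.96, edgeR adjusted p = 0.0579). Depth limits the control CD40 values of Ppbp in monocytes and macrophages, which rest on 17 and 11 UMIs, and of Cxcr2 in neutrophils, on 6 and 24.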

Other observations

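At clustering resolution 2, again without the 6 genes, a small macrophage cluster of 1015 cells was led by Ppbp and Pf4 beside Fcrls, Cbr2, Dppa3, Ccl7 and Stab1, genes that include markers of resident-like macrophages and the monocyte chemokine CCL7. Over the 11 mice with enough of these cells for a level, the mean was 4882 CPM of Pf4, 29.5 of Ppbp and 64.5 of Cxcl3. Ppbp also led a larger cluster of 4246 cells beside Inhba, Nos2 and Cxcl3, at 72.0 CPM of Ppbp and 562 of Cxcl3. Ppbp was also among the leading genes of a cluster of 4133 cells led by Mmp12, Npy and Mmp13, at 44.9 CPM. The cluster led by Cd209f, Lyve1 and Cxcl13 was at 3251 CPM of Pf4. Each of these other clusters had levels over 16 mice, so the sets of mice differ. No explanation of this pattern was examined.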
